A study of Mus musculus with 9 samples.

Results

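The genes described here make the immunoproteasome and load peptides onto MHC class I molecules: Psmb8, Psmb9, Psmb10, Psme1 and Psme2 on the proteasome side, and Tap1, Tap2, Tapbp, Tapbpl and Erap1 on the loading side. They were taken by gene symbol, and all 10 were found among the 18639 gene entries of each library. The libraries were made from CT2A, a mouse glioma line grown as a tumour in the mouse brain, sampled on day 5 after surgical removal. Each of 3 groups held 3 libraries, numbered 1 to 3: a group given sECM alone (a carrier that the labels do not spell out), a group given the control cells called GFP-TC, and a group given ThTC, CT2A cells that secrete interferon-beta (IFNβ) and the growth factor GM-CSF. The labels give no strain, sex or age of the mice, no cell dose, and do not tie the libraries to separate mice, so every p-value measures the spread between these libraries, which may in part be technical. In a bulk library the RNA of added CT2A cells cannot be told apart from that of the tumour.

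As background, the proteasome is a barrel of stacked rings that cuts proteins into peptides. In cells of the immune system, and in other cells exposed to interferon, its 3 catalytic subunits can be replaced: Psmb8 encodes β5i (LMP7, in place of Psmb5), Psmb9 encodes β1i (LMP2, in place of Psmb6) and Psmb10 encodes β2i (MECL-1, in place of Psmb7). Psme1 and Psme2 encode PA28α and PA28β, which form a cap that opens the barrel. The peptides are carried into the endoplasmic reticulum by the transporter TAP, a pair of the Tap1 and Tap2 proteins, are trimmed there by the aminopeptidase Erap1, and are fitted onto class I molecules with the help of tapasin (Tapbp) and its relative TAPBPR (Tapbpl). Interferon-γ, and to a degree type I interferon, is known to raise these genes through factors that include IRF1 and NLRC5.

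On GRCm38.p6, 4 of the genes stand side by side in the MHC on chromosome 17. Psmb9 (34182030 to 34187330, minus strand), Tap1 (34187556 to 34197225, plus strand), Psmb8 (34198195 to 34201454, plus strand) and Tap2 (34204479 to 34216321, plus strand) together span 34.3 kb. Tapbp (33919478 to 33929290, plus strand) ends 252739 bp before Psmb9. Psme1 (55578494 to 55581527, plus strand) and Psme2 (55587440 to 55591101, minus strand) are neighbours on chromosome 14, with 5912 bp between them. Psmb10 is on chromosome 8 (105935728 to 105938392), Tapbpl on chromosome 6 (125223927 to 125231860) and Erap1 on chromosome 13 (74639573 to 74693205). Psmb9 and Tap1 are read in opposite directions from starts 225 bp apart, so 275 of the 300 bases of their promoter windows are the same DNA. This stretch is shown because the RNA levels of these 2 neighbours are compared with each other in the results. The windows of Psmb8, Psme1 and Erap1 are shown because they hold a match to an interferon response motif, which is in capitals. Each window runs 5′ to 3′ from 250 bases before to 50 bases after the start of the RefSeq transcript, on the plus strand of GRCm38.p6.
Tap1, chr17:34187306-34187605: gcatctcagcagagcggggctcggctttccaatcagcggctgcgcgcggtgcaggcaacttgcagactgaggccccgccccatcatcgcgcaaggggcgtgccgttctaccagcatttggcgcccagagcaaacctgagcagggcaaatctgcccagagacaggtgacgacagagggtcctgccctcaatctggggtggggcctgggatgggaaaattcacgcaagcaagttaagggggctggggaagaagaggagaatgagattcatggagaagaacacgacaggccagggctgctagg
Psmb8, chr17:34197945-34198244: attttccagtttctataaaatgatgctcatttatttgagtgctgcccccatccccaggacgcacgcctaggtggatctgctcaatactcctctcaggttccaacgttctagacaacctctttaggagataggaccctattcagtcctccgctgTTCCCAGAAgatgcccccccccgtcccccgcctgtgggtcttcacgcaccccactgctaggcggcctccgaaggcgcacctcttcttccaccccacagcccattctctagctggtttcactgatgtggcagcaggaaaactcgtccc
Psme1, chr14:55578244-55578543: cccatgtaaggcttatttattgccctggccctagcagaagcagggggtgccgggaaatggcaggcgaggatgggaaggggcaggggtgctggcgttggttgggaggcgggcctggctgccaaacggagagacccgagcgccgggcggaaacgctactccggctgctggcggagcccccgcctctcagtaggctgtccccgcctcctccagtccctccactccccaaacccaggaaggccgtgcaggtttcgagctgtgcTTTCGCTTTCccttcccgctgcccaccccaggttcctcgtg
Erap1, chr13:74639603-74639902: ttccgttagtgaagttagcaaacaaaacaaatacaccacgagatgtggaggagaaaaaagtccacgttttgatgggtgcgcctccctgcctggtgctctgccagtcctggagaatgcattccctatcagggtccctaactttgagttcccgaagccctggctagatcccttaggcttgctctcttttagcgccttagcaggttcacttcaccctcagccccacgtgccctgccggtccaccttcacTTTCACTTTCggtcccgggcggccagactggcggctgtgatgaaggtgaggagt

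The letters of 2 motifs were searched on both strands, GAAA, any 2 bases and GAAA for the interferon-stimulated response element (ISRE) and TTCNNNGAA for the gamma-activated site (GAS) of interferon-responsive genes. RefSeq windows were given for 8 of the 10 genes, with 2 windows for Psme2 and 1 for each of the other 7. ISRE letters were in the windows of Psme1, 10 bases after the start, and of Erap1, 4 bases before it, both on the minus strand. GAS letters were in the window of Psmb8, 97 bases before the start. Of 32851 windows in the genome table, 3.44% held the ISRE letters and 8.3% the GAS letters. The windows of Psmb9, Tap1, Psmb10, Psme2 and Tapbp held neither, nor did those of the constitutive genes Psmb5 and Psmb6. Searches for the kappaB letters GGG, any 2 bases and TTTCC (in 1.63% of all windows) and the CRE letters TGACGTCA (1.79%) found 0 matches in any of these windows. These are matches of letters within a short window and not measured binding.

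The unit was TPM, the share of transcripts after correction for gene length, scaled to the same total in every library, so read depth is unknown beyond the labelled 4.47 Gb of bases per sample. GFP-TC 1 stood apart: it was the lowest of the 9 libraries for all 10 genes, and the summed TPM of the 10 genes ran from 1428 there to 3465 in ThTC 2. Glioma markers (Nes, Vim, Cd44, Sox2, Sox9 and Olig2) summed to 3666 to 5367 TPM over the libraries. The 6 general leukocyte markers, Ptprc among them, summed to 772 to 1171 TPM with sECM only, 469 to 1347 TPM with GFP-TC and 1202 to 1606 TPM with ThTC, and macrophage and monocyte markers, Lyz2 among them, to 882 to 1160, 644 to 1381 and 1291 to 2362 TPM. Ptprc itself made up little of that sum, at 10.4 to 35.7 TPM, and overlapped between the groups. T cell markers, Cd3d among them (6 of 7 listed were in the files), summed to 15.9 to 82.0, 5.23 to 70.2 and 77.3 to 86.9 TPM, and the 5 NK cell markers, Ncr1 among them, to 24.7 to 70.7, 9.86 to 77.2 and 82.5 to 85.6 TPM. Other immune markers did not all follow this order. In the same order of groups, B cell markers summed to 10.3 to 10.6, 9.11 to 10.2 and 6.56 to 10.1 TPM. Dendritic cell markers summed to 6.09 to 9.08, 5.61 to 10.6 and 5.62 to 10.65 TPM, and neutrophil markers to 19.8 to 39.6, 9.64 to 28.9 and 18.6 to 31.2 TPM. Microglia markers summed to 336 to 425, 254 to 586 and 395 to 765 TPM. None of the leukocyte, macrophage, T cell or NK cell markers was at 0 in any library. A brain marker score, the mean log2(TPM + 1), centred per gene, of the neuron, oligodendrocyte and astrocyte markers, ran from -1.50 in GFP-TC 1 to 1.75 in ThTC 3. In bulk tissue, more cells of a type and more RNA per cell cannot be told apart, and the part that these markers have in the values below was not tested, except where a fit with the brain score is given.

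**Figure D1:**
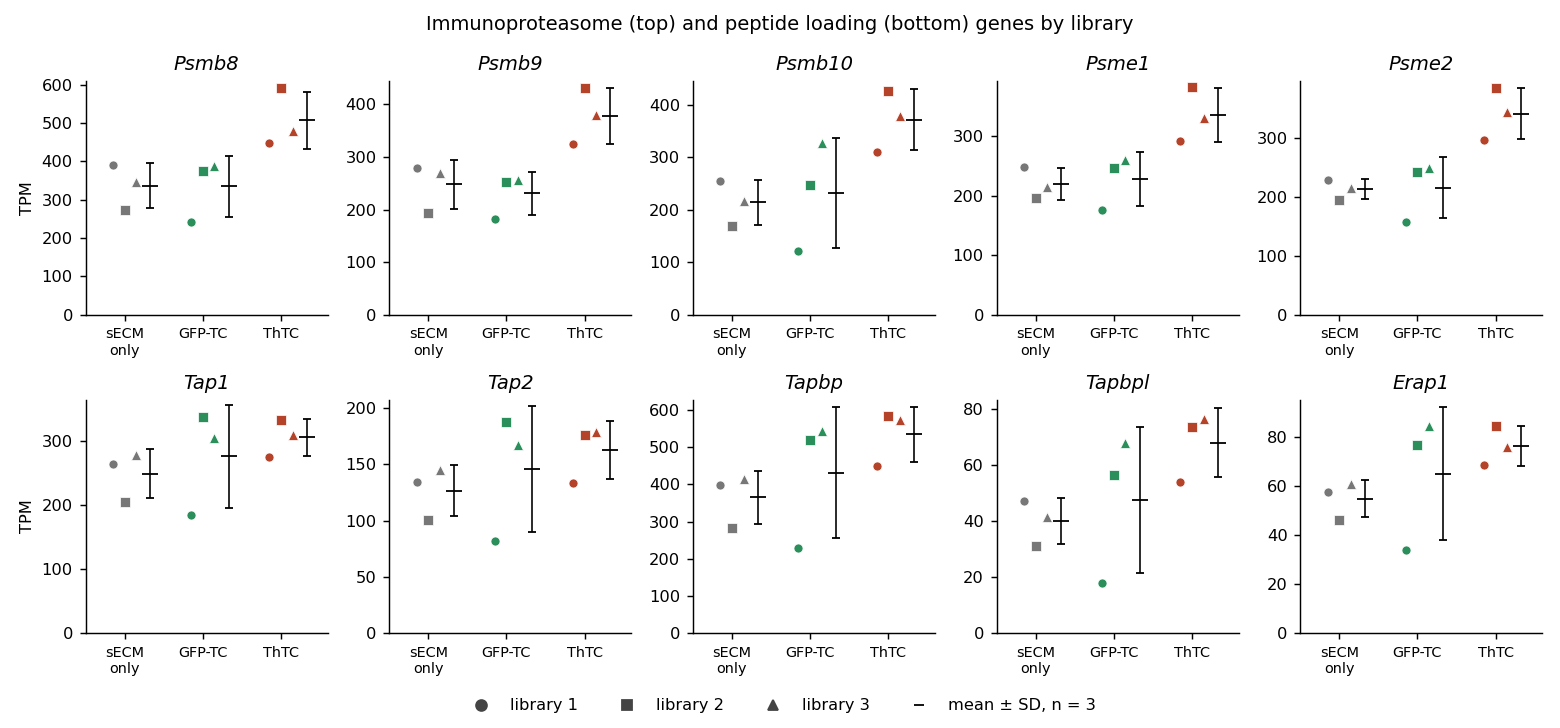
TPM of the 10 genes (vertical axes, each starting at 0) in each of the 3 groups (horizontal axes). Symbols are single libraries and bars are the mean ± SD (n = 3). The ThTC libraries lie above both other groups for Psmb8, Psmb9, Psme1 and Psme2, while for the 5 loading genes the GFP-TC libraries 2 and 3 reach into or above the ThTC values, and GFP-TC 1 is the lowest point in every panel.

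The 5 proteasome genes had the highest means with ThTC, 1.47 to 1.64 times the GFP-TC means and 1.51 to 1.74 times the sECM-only means, while the GFP-TC means were 0.931 to 1.08 times the sECM-only means and these groups overlapped for all 5. For 4 of the 5 genes (Psmb10 is the exception) every ThTC library lay above every GFP-TC library, which held for 2.2% of the 13829 tested genes, and for all 5 every ThTC library lay above every sECM-only library, which held for 5.03% of them, with 12.1% lower in the same way. None of the 10 genes passed limma's moderated test adjusted over all tested genes by the Benjamini-Hochberg method at 0.05, and neither did any other gene in the 3 comparisons (0% called). This fit holds no replicate block. At an unadjusted limma p under 0.05 in it, all 5 proteasome genes and none of the 5 loading genes were higher with ThTC than with GFP-TC. Of tested genes, 2.03% passed in that direction and 12.9% in the other. The same 5 of 10 were past that threshold and higher against sECM only (1.54% of tested genes higher and 5.36% lower), and 0 of 10 did for GFP-TC against sECM only (0.499% higher and 0.434% lower). Leaving out 1 library gave 3 of 10 (without ThTC 2) to 6 of 10 (without GFP-TC 3) past that threshold for ThTC against GFP-TC. Of all tested genes, 779 and 2051 were then past it in either direction. Against sECM only it gave 3 (without ThTC 2 or sECM-only 2) to 9 (without GFP-TC 1, which enters that comparison through the shared estimate of spread). There 332, 528 and 1429 of all tested genes were past it. With only the 2 compared groups in the fit, 4 of 10 passed against GFP-TC and 8 of 10 against sECM only (1385 and 1390 of all tested genes).

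Psmb8 was among the most abundant of the 10 genes per length of transcript, with a median of 386 TPM over the 9 libraries. It stood at 389, 274 and 347 TPM in the 3 sECM-only libraries, at 242, 375 and 386 TPM in GFP-TC and at 449, 592 and 479.7 TPM in ThTC. All 3 ThTC values were above the other 6, and the other groups overlapped. ThTC averaged 507 ± 75.1 TPM, against 335 ± 80.4 TPM for GFP-TC (SD, n = 3), a log2 fold change of 0.62 (SE 0.21, limma adjusted p = 0.316).

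Psmb9 showed the same order with less spread between the control libraries. It stood at 279.9, 194 and 269.9 TPM with sECM only, at 183, 253 and 256 TPM with GFP-TC and at 324, 431 and 380.2 TPM with ThTC. The lowest ThTC library was above the highest of the other 6. The mean of ThTC, 378 ± 53.5 TPM, against that of GFP-TC, 231 ± 41.4 TPM (SD, n = 3), gave a log2 fold change of 0.72 (SE 0.19, limma adjusted p = 0.316). Numbered pairs of ThTC and GFP-TC libraries differed by 0.82, 0.77 and 0.57 on the log2 scale, the most even of the 10 genes.

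Psmb10, the third catalytic subunit, had the widest spread of the 5. Its values were 256, 169.8 and 217 TPM with sECM only, 121, 248 and 328 TPM with GFP-TC and 310.5, 426 and 379 TPM with ThTC. GFP-TC 3 lay above the lowest ThTC library, so these groups overlapped, and GFP-TC 1 lay far below the rest. The log2 fold change against GFP-TC was 0.78 (SE 0.33, limma adjusted p = 0.331) and was 0.37 without GFP-TC 1.

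The PA28 genes varied almost as 1 gene. Psme1 stood at 248, 196 and 214 TPM with sECM only, 176, 246 and 260.5 TPM with GFP-TC and 292, 382 and 330.0 TPM with ThTC. Psme2 stood at 229, 195 and 216 TPM with sECM only, 158, 243 and 249 TPM with GFP-TC and 297, 385 and 344 TPM with ThTC. For both genes all ThTC libraries were above the other 6. The log2 fold changes against GFP-TC were 0.57 (SE 0.17) and 0.68 (SE 0.18), with limma adjusted p = 0.316 for each. The ratio of Psme1 to Psme2 stayed between 0.959 and 1.11 in the 9 libraries. Psme2b, a near copy of Psme2 on chromosome 11, was listed at 2.14 to 8.34 TPM, and how reads shared by the copies were assigned is not given in the sources used here.

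The loading genes showed another pattern in the GFP-TC group. Tap1, one arm of the transporter, stood at 264, 205 and 278 TPM with sECM only, 185, 337 and 305 TPM with GFP-TC and 275, 333 and 310.0 TPM with ThTC. Its highest library was GFP-TC 2 and its lowest GFP-TC 1, and the log2 fold change of ThTC against GFP-TC was 0.19 (SE 0.22, limma adjusted p = 0.717). Tap2, the other arm, stood at 134, 101 and 145 TPM with sECM only, 82.3, 187 and 167 TPM with GFP-TC and 133, 176 and 178 TPM with ThTC, and its difference was 0.23 (SE 0.30, limma adjusted p = 0.754). Neither gene separated ThTC from GFP-TC or from sECM only.

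Tapbp, which encodes tapasin, had the highest median of the 10 genes, 448 TPM. Its values were 398, 283 and 414 TPM with sECM only, 229.6, 520.2 and 544 TPM with GFP-TC and 448, 583 and 572 TPM with ThTC. Tapbpl was the least abundant, at 47.5, 31.3 and 41.5 TPM with sECM only, 18.1, 56.5 and 68.1 TPM with GFP-TC and 54.0, 73.8 and 76.6 TPM with ThTC, and it varied most, 4.23-fold from lowest to highest library. Erap1 stood at 57.5, 46.3 and 60.9 TPM with sECM only, 33.9, 76.8 and 84.4 TPM with GFP-TC and 68.4, 84.4 and 75.9 TPM with ThTC. For these 3 genes every ThTC library lay above every sECM-only library, and ThTC and GFP-TC overlapped. Their log2 fold changes against GFP-TC were 0.40 (SE 0.32), 0.69 (SE 0.43) and 0.32 (SE 0.30), with limma adjusted p from 0.454 to 0.631.

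**Figure D2:**
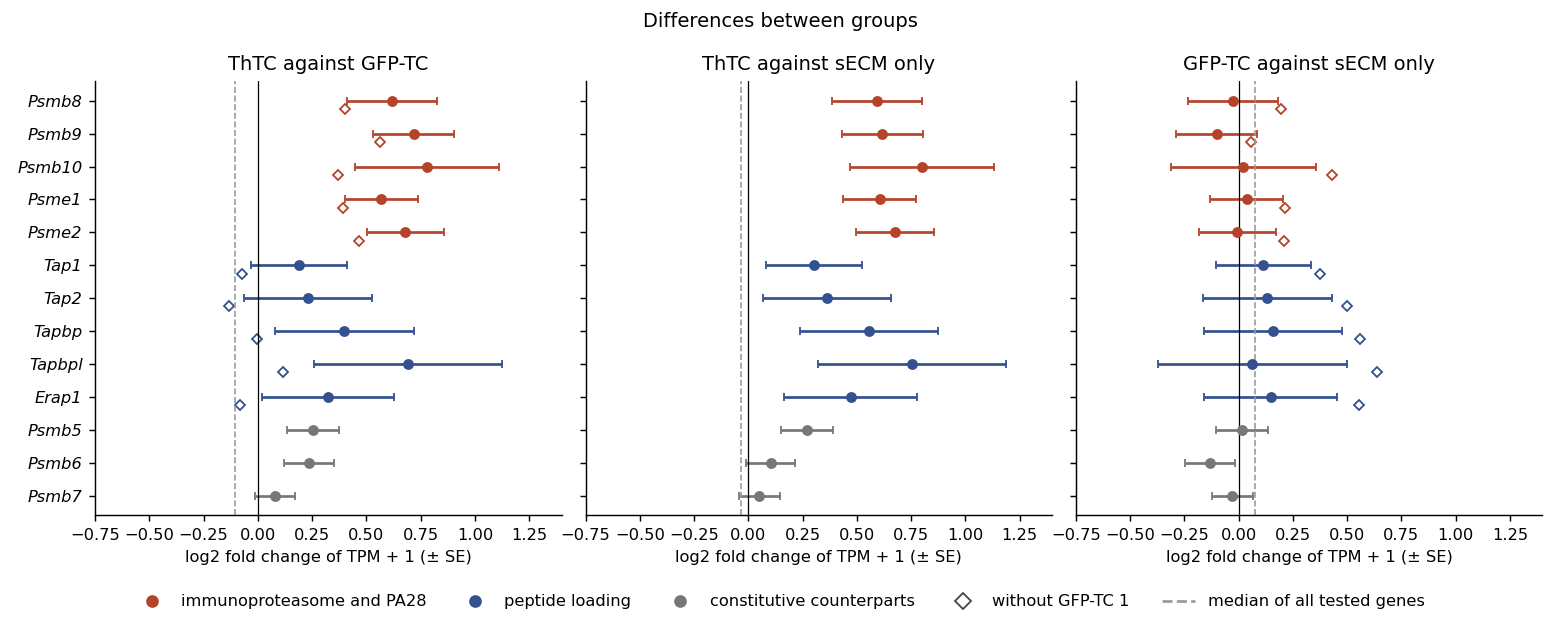
Log2 fold change of TPM + 1 (horizontal axes, points with the limma SE as bars) for the 10 genes and their 3 constitutive counterparts in the 3 comparisons, with open diamonds for the value without GFP-TC 1 where that library enters and a dashed line at the median of all tested genes. In ThTC against GFP-TC the proteasome genes lie at 0.57 to 0.78 and stay at 0.37 to 0.56 without GFP-TC 1, while Tap1, Tap2, Tapbp and Erap1 go to 0 or below.

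As groups, the proteasome genes had a median log2 fold change of 0.68 and the loading genes of 0.32 for ThTC against GFP-TC, with all 10 values above 0, beside a median of -0.10 for all tested genes, of which 33.8% were above 0. Against sECM only the medians were 0.62 and 0.47, again with all 10 above 0 (44.4% of tested genes), and 3 of the 5 loading genes did not overlap. For GFP-TC against sECM only the medians were -0.01 and 0.13, with 7 of 10 above 0 (71.8% of tested genes), and 0 of the 10 genes separated the groups (3.15% of tested genes higher and 1.08% lower without overlap). The ThTC group enters 2 of these comparisons and each control group enters 2, so they are not independent of each other.

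GFP-TC 1 carried much of the difference for the loading genes. Without it, the log2 fold changes of ThTC against GFP-TC were 0.40 for Psmb8, 0.56 for Psmb9, 0.37 for Psmb10, 0.39 for Psme1 and 0.47 for Psme2. They were -0.07 for Tap1, -0.14 for Tap2, -0.00 for Tapbp, 0.12 for Tapbpl and -0.08 for Erap1. The 4 non-overlapping proteasome genes and 0 loading genes remained above GFP-TC 2 and 3 (6.59% of tested genes), and the smallest limma adjusted p of the 10 genes was then 0.157. Read the other way, GFP-TC 2 and 3 lay above all sECM-only libraries for all 5 loading genes, with log2 fold changes of 0.38 for Tap1, 0.50 for Tap2, 0.56 for Tapbp, 0.64 for Tapbpl and 0.55 for Erap1, and for 1 of the 5 proteasome genes, Psme2. With 2 libraries left in the group, 31.7% of all tested genes did so, and limma adjusted p of the 10 genes ran from 0.498 to 0.866.

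With the numbered pairs of GFP-TC and ThTC libraries as a block in a fit of these 6 libraries, limma called 8 genes and 0 of the 10. Psmb9 came nearest, at adjusted p = 0.0628, then Psme2 at 0.0759, Psme1 at 0.102, Psmb8 at 0.105 and Psmb10 at 0.136. The loading genes ran from 0.219 for Tapbpl to 0.444 for Tap1. Pair 1, which holds GFP-TC 1, gave the largest difference for each of the 10 genes. In pairs 2 and 3 the proteasome genes differed by 0.21 to 0.78 on the log2 scale, while Tap1 differed by -0.02 and 0.02, Tap2 by -0.09 and 0.09, Tapbp by 0.16 and 0.07, Tapbpl by 0.38 and 0.17 and Erap1 by 0.13 and -0.15. The 2 ranges overlap through Tapbpl. With the brain marker score in the model, the median of the 10 genes for ThTC against GFP-TC was 0.57 and the smallest limma adjusted p 0.120. There 6 of 10 passed at an unadjusted limma p under 0.05, and 3385 of all tested genes.

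The constitutive subunits varied less over the 9 libraries than their inducible partners. Psmb5 ranged over the 9 libraries from 125 to 185 TPM, Psmb6 from 175 to 243 TPM and Psmb7 from 189 to 237 TPM. Their log2 fold changes for ThTC against GFP-TC were 0.26, 0.23 and 0.08, with limma adjusted p from 0.352 to 0.727. By numbered pairs the differences were -0.08, 0.56 and 0.28 for Psmb5, 0.02, 0.47 and 0.22 for Psmb6 and -0.14, 0.23 and 0.15 for Psmb7. In pairs 2 and 3 the constitutive genes were thus higher with ThTC as well. Every ThTC library lay above every sECM-only library for Psmb5, as for 5.03% of tested genes. A ratio of 2 genes within a library does not depend on how the library was scaled, so each inducible subunit was divided by the subunit that it replaces.

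The ratio of Psmb10 to Psmb7 was 1.23, 0.755 and 1.08 with sECM only, 0.511, 1.31 and 1.66 with GFP-TC and 1.44, 1.93 and 1.73 with ThTC. The ratio of Psmb9 to Psmb6 was 1.27, 0.851 and 1.297 with sECM only, 0.767, 1.45 and 1.35 with GFP-TC and 1.34, 1.78 and 1.73 with ThTC. The ratio of Psmb8 to Psmb5 was 2.56, 1.82 and 2.65 with sECM only, 1.45, 2.998 and 2.62 with GFP-TC and 2.84, 3.199 and 2.67 with ThTC. All 3 ratios were higher in every ThTC library than in every sECM-only library, by 0.75, 0.52 and 0.32 on the log2 scale, each at p = 0.1 in an exact two-sided permutation test, the smallest that 3 against 3 allows (0.3 after Benjamini-Hochberg adjustment over the 9 ratio comparisons).

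Against GFP-TC the ratios overlapped, because GFP-TC 2 or 3 reached above the lowest ThTC library in each case. The differences were 0.70, 0.49 and 0.36 on the log2 scale, with exact two-sided permutation p = 0.2, 0.3 and 0.4. By numbered pairs all 3 ratios were higher with ThTC in each of the 3 pairs, with an exact paired permutation p = 0.25 for each, the smallest that 3 pairs allow. Without GFP-TC 1 they were 0.19, 0.20 and 0.05. GFP-TC and sECM only differed by 0.05, 0.03 and -0.04, with exact permutation p from 0.8 to 0.9.

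**Figure D3:**
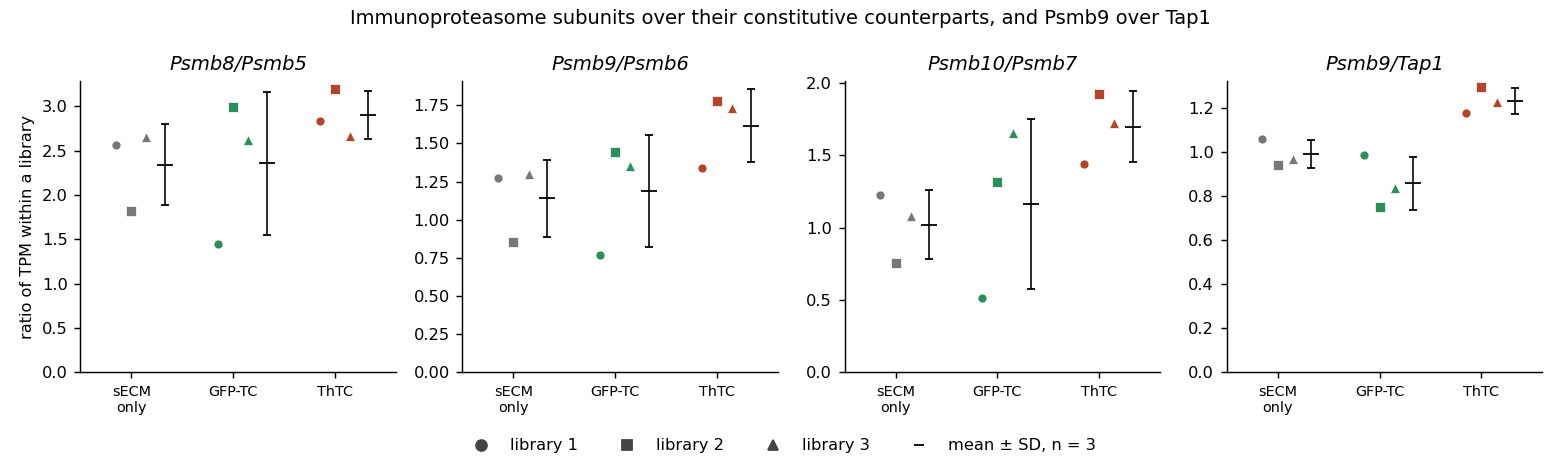
Ratio of TPM within each library (vertical axes, each starting at 0) for the 3 inducible over constitutive subunits and for Psmb9 over Tap1, by group (horizontal axes). Symbols are single libraries and bars are the mean ± SD (n = 3). The ThTC libraries lie above all sECM-only libraries in the 4 panels, and above all GFP-TC libraries for Psmb9 over Tap1, at 1.18 to 1.30 against 0.749 to 0.988.

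Within the MHC cluster the neighbours Psmb9 and Tap1 differed in pattern. Their ratio was 1.06, 0.943 and 0.971 with sECM only, 0.988, 0.749 and 0.839 with GFP-TC and 1.18, 1.30 and 1.23 with ThTC. The mean was 1.23 ± 0.0583 with ThTC, 0.859 ± 0.120 with GFP-TC and 0.992 ± 0.0623 with sECM only (SD, n = 3), and no ThTC library overlapped either other group. The log2 difference was 0.53 against GFP-TC and 0.32 against sECM only, each at exact two-sided permutation p = 0.1, and 0.45 after adjustment over the 135 comparisons of all pairs of the 10 genes, of which this pair was picked with its values known. Leaving out any 1 library kept the difference from GFP-TC between 0.44 and 0.64. Of all tested genes, 1.2% had a ratio to Tap1 that was higher in every ThTC than in every GFP-TC library. The exons of Psmb9 and Tap1 overlap on opposite strands in the GENCODE M21 annotation, and whether counting used the strand is not given in the sources used here, so reads from the overlap may be assigned to either gene.

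Tap1 stood in a like relation to proteasome genes outside the cluster. Psmb10 over Tap1 was higher with ThTC by 0.59 against GFP-TC and 0.50 against sECM only on the log2 scale, and Psme2 over Tap1 by 0.49 and 0.37, all without overlap (exact two-sided permutation p = 0.1 for each). Psmb8 over Tap2, the other 2 genes of the cluster, ranged from 2.00 to 3.38, and its groups overlapped (log2 difference 0.39 for ThTC against GFP-TC, exact two-sided permutation p = 0.2). Of the 25 ratios of a proteasome gene to a loading gene, 9 were higher in every ThTC than in every GFP-TC library and 0 were lower, with a median log2 difference of 0.35. The 9 were each proteasome gene over Tap1, Psmb10 over Tap2, Tapbp and Erap1, and Psme2 over Tap2. Of tested genes above 0 in every library, 1.2% had such a ratio to Tap1 and 1.25% to Tap2 (1.35% and 1.27% against sECM only). No such share was computed for the other loading genes. Against sECM only 10 of 25 were higher and 0 lower, with a median of 0.20, and 0 of 25 separated GFP-TC from sECM only. Within the loading genes 0 of 10 ratios separated ThTC from GFP-TC and 6 of 10 separated it from sECM only. Within the proteasome genes 2 of 10 and 3 of 10 did, so against sECM only ratios within a side separated the groups about as often as those across the sides. The 25 ratios share their genes and libraries and are not independent.

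**Figure D4:**
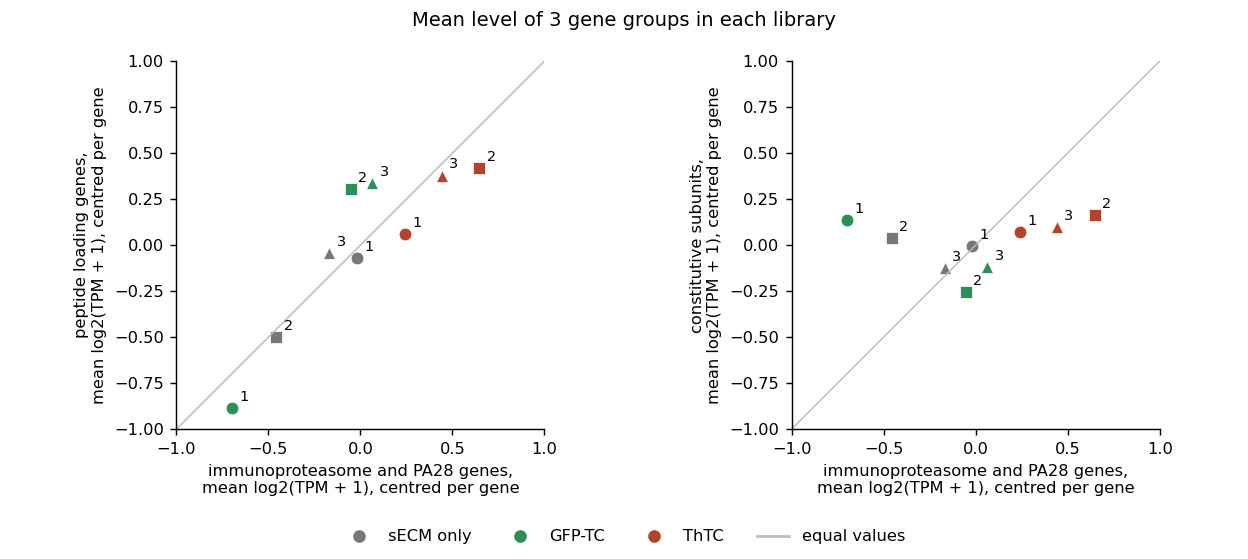
Mean log2(TPM + 1) of the proteasome genes in each library, centred per gene (horizontal axes), against the same for the 5 loading genes (left) and the 3 constitutive subunits (right); numbers are library numbers and the grey line marks equal values. On the left the 3 ThTC libraries, GFP-TC 1 and sECM-only 1 and 2 lie below the line. GFP-TC 2 and 3 and sECM-only 3 lie above it. The constitutive subunits span a narrower range than the proteasome genes.

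Over the 9 libraries the 10 genes varied together. Among the 10 pairs of proteasome genes Pearson's r of log2(TPM + 1) was 0.919 to 0.990 (median 0.964), among the 10 pairs of loading genes 0.929 to 0.989 (0.974), and among the 25 pairs across the sides 0.740 to 0.972 (0.843). All 45 passed exact permutation p-values adjusted over the 45 pairs by r, and by Spearman's rho all pairs within a side and 14 of the 25 across the sides did. No share over pairs of other tested genes is set beside these counts. After subtracting the group means r was 0.875 to 0.973 among the proteasome genes, 0.932 to 0.989 among the loading genes and 0.833 to 0.979 across the sides, and whether r differs within and across the sides was not tested. Psme1 with Psme2 gave r = 0.990 (exact permutation p = 1.1e-05, Spearman's rho 0.983, p = 4.96e-05) and Tap1 with Tap2 r = 0.989 (exact permutation p = 2.48e-05, rho 0.967, p = 0.000165). Without the 2 libraries farthest from the median of the first gene, r was 0.979 and 0.957. Psmb9 with Tap1 gave r = 0.773 (exact permutation p = 0.0153, adjusted 0.016) but rho 0.500 (p = 0.178), and r = 0.572 without the 2 farthest libraries, GFP-TC 1 and ThTC 2, so the relation rests in part on those 2. After subtracting the group means it was 0.906. No relation of an inducible subunit with its constitutive partner passed: r was 0.380 for Psmb8 with Psmb5, 0.181 for Psmb9 with Psmb6 and -0.324 for Psmb10 with Psmb7 (exact permutation p = 0.316, 0.647 and 0.395, rho 0.533, 0.350 and -0.200). After subtracting the group means r was negative for all of these pairs, at -0.346, -0.66 and -0.793, which was not tested.

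Regulators known for these genes were measured in the same libraries. Nlrc5, the class I transactivator, stood at 56.2, 45.6 and 74.7 TPM with sECM only, 39.9, 104.9 and 81.0 TPM with GFP-TC and 55.5, 65.0 and 70.6 TPM with ThTC, so its highest libraries were GFP-TC 2 and 3. Irf1 stood at 161, 139 and 169 TPM with sECM only, 103, 255 and 241 TPM with GFP-TC and 169, 253 and 262 TPM with ThTC. ThTC and GFP-TC overlapped for both.

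Of 40 correlations of the 10 genes with 4 other measures, which were chosen after the data were seen, those with Nlrc5 gave r of 0.708 to 0.894 for the 5 loading genes, which passed after adjustment over the 40, and 0.392 to 0.556 for the 5 proteasome genes, which did not. By Spearman's rho 2 of the 5 loading genes passed, Tap1 and Tap2, and 0 of the proteasome genes. For Tap2 r was 0.894 (exact permutation p = 0.00073, rho 0.867, p = 0.00451) and 0.833 without GFP-TC 1 and 2. For Psmb9 it was 0.392 (exact permutation p = 0.299, rho 0.200, p = 0.613) and 0.377 without them. After subtracting group means, the r with Nlrc5 lay between 0.730 and 0.969 for all 10 genes. Whether 2 of these r differ was not tested. With Irf1 r was 0.722 for Psmb9 to 0.973 for Tap2, and all 10 passed the adjustment, 6 of them also by rho. Without GFP-TC 1 and ThTC 3 r with Irf1 was 0.475 for Psmb9 and 0.945 for Tap2. No share of all tested genes is set beside the counts that passed with Nlrc5 or Irf1, so they do not set the 10 genes apart.

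The summed leukocyte markers varied with the 10 genes too, with r from 0.827 for Tap1 to 0.970 for Psmb10, all past the adjustment and 7 of them also by rho. For Psmb10 rho was 0.967 (exact permutation p = 0.000165), and r was 0.913 without GFP-TC 1 and sECM-only 2. For Tap1 rho was 0.583 (exact permutation p = 0.108) and r was 0.191 without these libraries, so that relation rests on them. The brain marker score gave r of 0.435 to 0.739, of which 3 of 10 passed (Tap2, Tapbp and Tapbpl) and 0 by rho. For these measures, too, no share of all tested genes is set beside the counts.

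**Figure D5:**
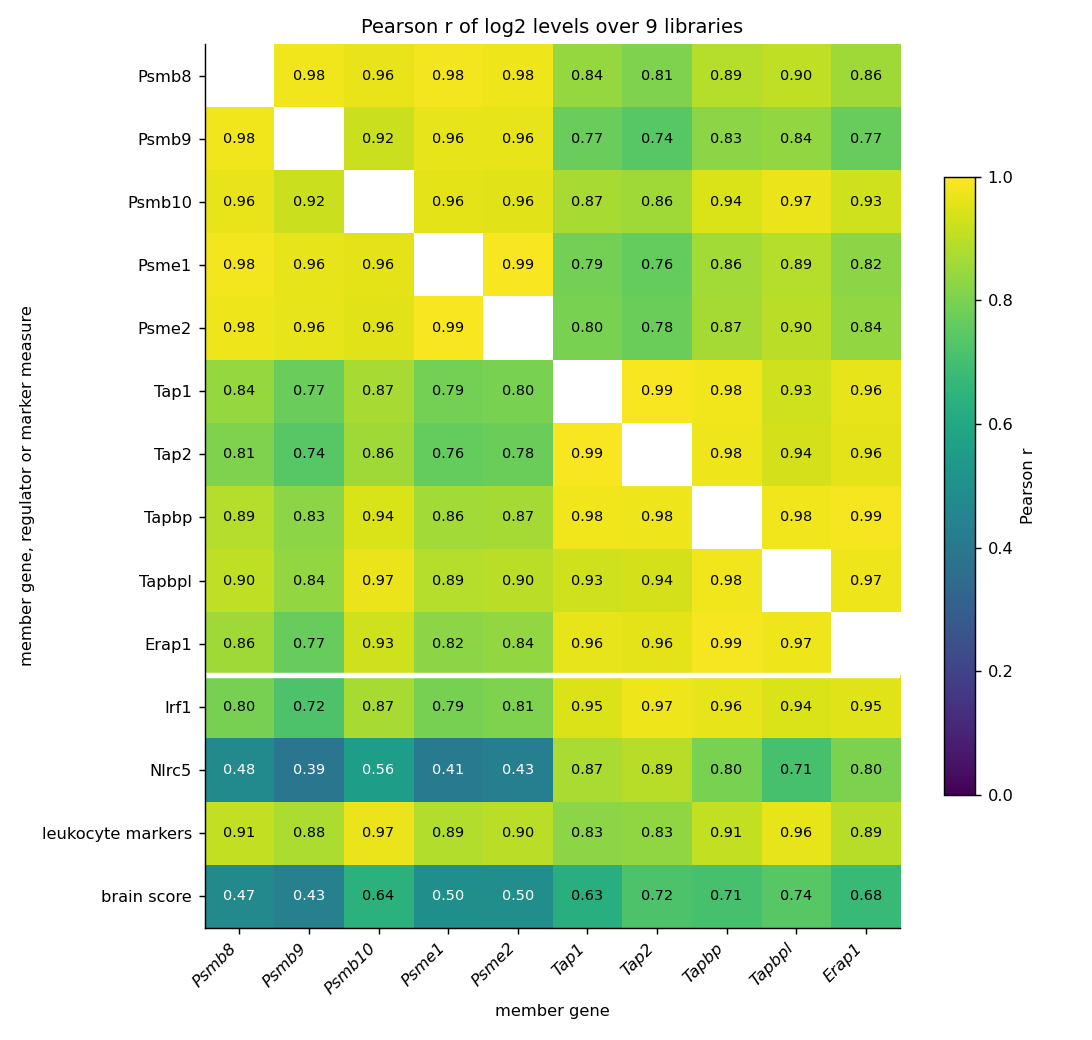
Pearson's r of log2 levels over the 9 libraries between each pair of the 10 genes (upper block) and between the 10 genes and Irf1, Nlrc5, the summed leukocyte markers and the brain marker score (lower block). Within the proteasome genes and within the loading genes every r is 0.919 or more. Across the sides r runs from 0.740 to 0.972, and Psmb10 also reaches 0.928 with Erap1, 0.943 with Tapbp and 0.972 with Tapbpl. The Nlrc5 row drops from 0.708 or more on the loading side to 0.556 or less on the proteasome side.

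Among 11192 other tested genes with a mean of 5 TPM or more, those closest to the mean profile of the 10 over the 9 libraries were H2-T23 (the non-classical class I molecule Qa-1, r = 0.993), Zbp1 (a sensor of Z-form nucleic acid, 0.990), Tgtp1 (an interferon-induced GTPase, 0.990), Tlr13 (a receptor for bacterial ribosomal RNA, 0.989) and Iigp1 (an interferon-induced GTPase, 0.987), followed by Sp140, Il18bp, Apobec1, Gm12250 and Ly6a (0.981 to 0.984). They were picked for their likeness, so these r carry no test. The nearest single gene differed between most of the 10 genes, and was shared only by Psmb8 with Psme2 and by Tap1 with Tap2. It was Lat2, an adaptor of immune receptor signalling, for Psmb8 (0.995) and Psme2 (0.976), Ms4a6b for Psmb9 (0.980), Ly6a for Psmb10 (0.991) and Alox5ap for Psme1 (0.977). It was Gbp6, an interferon-induced guanylate-binding protein, for Tap1 (0.986) and Tap2 (0.992), Gm4070 for Tapbp (0.992), Slamf8 for Tapbpl (0.995) and Itgal for Erap1 (0.985).

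Among the listed genes of the rest of the pathway limma called 0 in each comparison. Between ThTC and GFP-TC the 3 listed class I genes differed by less than any of the 10 genes. The differences were 0.09 for H2-K1, 0.16 for H2-D1 and 0.09 for B2m on the log2 scale (limma adjusted p from 0.599 to 0.850). The non-classical H2-T23, picked above for its likeness to the 10 genes, was not on this list. Its mean was 230 TPM in the GFP-TC group (SD 95.2) and rose to 355 TPM in the ThTC group (SD 67.6). H2-K1 ranged from 2367 to 3407 TPM over the 9 libraries, with its lowest and highest in GFP-TC 1 and 2. The other 20S core subunits were above 0 in 11 of 11, with a median of 0.20 and the smallest p for Psma2 (0.23) and Psmb1 (0.22), and the assembly chaperones in 5 of 5, with a median of 0.13 and the smallest p for Pomp (0.21), the maturation factor of new proteasomes, and Psmg4 (0.24). Of all tested genes, 33.8% were above 0. Pomp, Psmg4 and the core subunit Psma4 (0.10) were higher in every ThTC than in every GFP-TC library, as were 2.2% of tested genes.

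The other caps of the proteasome differed in the opposite direction. Psme3, which encodes the nuclear activator PA28γ, stood at 147, 157 and 159 TPM with sECM only, 154, 163 and 162 TPM with GFP-TC and 146, 123 and 138 TPM with ThTC. Psme4, which encodes the activator PA200, stood at 54.4, 59.1 and 64.7 TPM with sECM only, 65.9, 71.1 and 55.4 TPM with GFP-TC and 54.2, 53.1 and 44.7 TPM with ThTC. For both genes every ThTC library was below the other 6, and the log2 fold changes against GFP-TC were -0.23 and -0.33 (limma adjusted p = 0.316 for each), where 16.9% of tested genes were likewise lower without overlap. Psmf1, an inhibitor of the proteasome, differed by 0.06.

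In the endoplasmic reticulum, the chaperones Calr, Canx and Pdia3 differed by -0.10, -0.21 and -0.02 between ThTC and GFP-TC. Of the 6 other peptidases 1 was above 0, the cytosolic leucine aminopeptidase Lap3 (0.19), and the 2 with the smallest p, Npepps and Thop1, were at -0.24 and -0.18. Against sECM only Lap3 differed by 0.35 and no ThTC library overlapped, at 98.0, 125 and 123 TPM against 86.7, 92.4 and 91.5 TPM. Of 9 listed regulators that were counted, 4 were above 0 for ThTC against GFP-TC (33.8% of all tested genes), with a median of -0.01, and 6 against sECM only (44.4%), with a median of 0.135.

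Several genes here share exon sequence with another gene on the genome. Besides Psmb9 and Tap1, exons of Psme1 overlap Emc9 (4.19 to 12.6 TPM), those of Tapbp overlap Zbtb22 (29.4 to 43.8 TPM) and those of Erap1 overlap Cast (48.5 to 66.2 TPM). How reads in the overlaps were assigned is not given in the sources used here, and Erap1 and Cast are of similar abundance.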

How the data were processed

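Total RNA from 9 libraries was sequenced on a DNBseq platform, per the labels' protocols. The deposited files hold 1 TPM value per gene and library, per the file headers. The submitters' processing notes name HISAT and the builds GRCm38.p6 and mm10, with no version, and the tool and annotation behind these values are not given in the sources used here. Depth cannot be read from TPM, so intervals for counting error are left out, and since it sums to a fixed total, a rise in some genes lowers others.

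Groups came from the sample titles. Genes that reached 1 TPM in 3 or more libraries (13829 of 18639 entries, all 10 members included) were tested on log2(TPM + 1) with limma 3.58.1 in R 4.3.3, with an intensity trend and all 9 libraries in 1 fit. The Benjamini-Hochberg adjustment of p ran over all tested genes within each comparison, at 0.05. Fold changes are on that log2 scale. Ratios of TPM within a library and correlations were tested by exact two-sided permutation over libraries (scipy 1.17.1, Python 3.11.15). The limma step was tested on simulated data. Promoter windows and positions are from RefSeq tables on GRCm38.p6, and figures were drawn with matplotlib 3.10.9.

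Same-numbered GFP-TC and ThTC libraries deviated together from their group means (r = 0.743, 0.124 and 0.874 over tested genes), although no label explains the numbers. Other-numbered ones gave -0.797 to 0.382, the highest, GFP-TC 1 with ThTC 2, being above pair 2. GFP-TC 3 with sECM-only 1 gave 0.611. The brain marker score rose with the number, at -1.50, 0.15 and 1.50 in GFP-TC and -1.16, -0.02 and 1.75 in ThTC. Same-numbered GFP-TC and ThTC libraries were treated as pairs in the blocked fit, the pair differences and the paired ratio test only. The main limma fit and the other ratio tests did not use the pairs. The sECM-only libraries gave -0.527, -0.136 and -0.187 with same-numbered GFP-TC and -0.548, 0.282 and -0.205 with same-numbered ThTC libraries. They were not treated as pairs outside the replicate-block alternatives.

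The genes, pathway lists and markers were chosen with earlier results of these data known. The text names all members and their constitutive counterparts, every gene of a pathway list of 3 or fewer, otherwise the 2 with the smallest p in a comparison, the regulators Nlrc5 and Irf1, the first marker of a cell type, and the genes of most similar profile. The ratios among members, such as Psmb9 to Tap1, the correlations with other measures, and the counts without GFP-TC 1 were chosen after seeing the data. Another listed regulator is not reported here. Lap3 and the overlapping genes are named for their list or position. Alternatives were the pseudocount, the filter, the scaling (median of ratios or quantiles), no intensity trend, a fit of the compared groups only, the replicate block, a brain marker covariate and leaving out each library.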

Additional observations from a re-analysis of the deposited data

How the results depend on the processing

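Of the 110 values of single members for ThTC against GFP-TC under 11 settings that kept all libraries or all 6 of the compared groups, and the 110 against sECM only, all kept their direction and their side of the adjusted limma threshold. At an unadjusted limma p under 0.05 the count of members past it changed with the setting, also beyond the counts given above. For ThTC against GFP-TC it was 4 with no filter or no intensity trend (2298 and 1917 of all tested genes). Against sECM only it was 4 with no intensity trend, 6 with the brain covariate and 8 with the replicate block in 6 libraries. There 836, 1585 and 1068 of all tested genes passed. Scaling by median of ratios moved the median of all tested genes for ThTC against GFP-TC from -0.10 to 0.02. The replicate block in the 6 libraries of ThTC and GFP-TC raised the genes called there from 0 to 8 and changed no call of a member. Against sECM only, the brain marker covariate gave 2 genes called with ThTC and 1 with GFP-TC, and with the replicate block in all 9 libraries 1 in the latter. Leaving out 1 library gave 0 to 1 genes called against sECM only in both comparisons and 0 for ThTC against GFP-TC; the 1 appeared without sECM-only 1 in both comparisons and without sECM-only 2 for GFP-TC. The cause was not tested. For GFP-TC against sECM only the median of members, 0.05, was -0.04 with median-of-ratios scaling (Psmb10 -0.0692, Psme1 -0.0535, Tapbpl -0.0266) and -0.0248 with the brain covariate (Psmb10 -0.0661, Psme1 -0.0011, Tapbpl -0.0561). Over leave-one-out fits, GFP-TC against sECM only gave medians of the members from -0.11 to 0.40, with Psmb8 at -0.17 to 0.19, Psmb9 -0.27 to 0.0573, Psmb10 -0.28 to 0.43, Psme1 -0.0713 to 0.21, Psme2 -0.12 to 0.21, Tap1 -0.0538 to 0.38, Tap2 -0.0921 to 0.50, Tapbp -0.0592 to 0.56, Tapbpl -0.29 to 0.64 and Erap1 -0.0906 to 0.55, and log2 ratios of -0.25 to 0.28 for Psmb8 to Psmb5, -0.17 to 0.32 for Psmb9 to Psmb6 and -0.29 to 0.56 for Psmb10 to Psmb7. For ThTC against GFP-TC leave-one-out gave -0.0744 to 0.36 for Tap1, -0.14 to 0.45 for Tap2, -0.0039 to 0.62 for Tapbp and -0.083 to 0.56 for Erap1, in each case lowest without GFP-TC 1. No other member changed direction there, and none did against sECM only with ThTC. The log2 ratio of Psmb9 to Tap1 kept its direction in all 3 comparisons under leave-one-out, the replicate block and 1 TPM added before the ratio. Depth limits could not be judged from TPM.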

Other observations

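Among the regulators, Rfxank and Rfxap, subunits of the RFX complex that binds class I and class II promoters, had the smallest p for ThTC against GFP-TC, in the direction opposite to the immunoproteasome genes. Rfxank stood at 17.6, 20.9 and 23.5 TPM with sECM only, 21.4, 28.8 and 22.0 TPM with GFP-TC and 16.0, 16.5 and 16.5 TPM with ThTC, and every ThTC library was below the other 6. The log2 fold change against GFP-TC was -0.52 (limma adjusted p = 0.316), and 16.9% of tested genes were lower without overlap in the same comparison. Rfxap was at -0.27 (limma adjusted p = 0.361). Irf8, a regulator found in myeloid and B cells, had a log2 fold change of 0.48 against GFP-TC and 0.61 against sECM only, at 54.8, 77.6 and 79.4 TPM with ThTC, and its GFP-TC libraries ran from 26.9 to 72.0 TPM.

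The PA28 ratio, Psme1 over Psme2, was lower in every ThTC library (0.982, 0.992 and 0.959) than in every GFP-TC library (1.11, 1.01 and 1.05). The difference was -0.11 on the log2 scale (exact two-sided permutation p = 0.1, 0.45 after adjustment over the 135 comparisons of all pairs).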
